A study of Homo sapiens with 4 samples.

Results

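The protein kinase C (PKC) and protein kinase D (PKD) genes were examined in MV4-11R, a PKC412-resistant leukaemia cell line, and in its drug-sensitive parent MV4-11. The 10 genes were PRKCA, PRKCB, PRKCD, PRKCE, PRKCH, PRKCQ, PRKCI, PRKCZ, PRKD2 and PRKD3, out of 18417 genes measured. They were chosen by name, as isoforms of the first kinases known to be blocked by PKC412 (midostaurin), with the brightest probe set kept for each gene. Each of the 10 genes had 1 probe set. MV4-11R was selected from MV4-11 cells kept for 3 months in PKC412 at stepwise higher concentrations. MV4-11 comes from a human acute myeloid leukaemia with an MLL fusion, and its FLT3 receptor kinase is activated by an internal tandem duplication. There were 2 arrays of each line. The labels give EZH2 as low in MV4-11R and high in MV4-11, do not say whether MV4-11R is a clone, and do not say whether PKC412 was in the medium when RNA was taken.

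PKC isoforms are serine and threonine kinases that carry signals from the membrane. Phospholipase C cuts a membrane lipid to release diacylglycerol and, through inositol trisphosphate, calcium. Conventional isoforms such as alpha and beta need both signals, the calcium-independent isoforms delta, epsilon, eta and theta need diacylglycerol alone, and the atypical isoforms iota and zeta need neither. PKD kinases bind diacylglycerol too and are phosphorylated and switched on by PKC. In myeloid cells PKC drives the oxidative burst and, when activated by phorbol esters, differentiation towards macrophages. PKC412 was first developed as a PKC inhibitor and was later used for its action on FLT3.

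The deposited values are log2 signals made with RMA, so a difference of 1 is a doubling of signal. All differences below are MV4-11R minus MV4-11, and a gene is said to have risen or fallen where limma's adjusted p over all genes was under 0.05. Levels of different genes come from different probes and are not ranked against each other. As a guide to background, 95% of 341 olfactory receptor genes averaged under 6.26. Of 11 myeloid markers 0 lay under the guide in both lines, 0 rose and 2 fell, CSF1R by 1.73 (adjusted p = 0.00939) and LYZ by 0.69 (adjusted p = 0.0192) on the log2 scale. These and the other markers named were chosen after their values were seen. For comparison with such counts, 7.92% of all genes rose and 7.13% fell. The means were 11.40 in MV4-11R and 11.44 in MV4-11 for the transcription factor SPI1, and 10.77 in MV4-11R and 10.73 in MV4-11 for CEBPA. Of 12 T and NK cell markers 8 lay under the guide in both lines, among them the T cell receptor chains CD3D, CD3E and CD3G. CD8A, ZAP70, GNLY and NKG7 read above it in both lines. EZH2 read 9.90 and 9.29 in MV4-11R, against 9.75 and 9.74 in MV4-11, so the MV4-11R arrays lay on either side of MV4-11 and the labelled difference was not seen at the RNA level (adjusted p = 0.734). The labels do not state separate cultures, so p-values reflect how far these arrays differ from each other, a spread that may be technical.

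Of the 10 genes 0 rose and 2 fell, PRKCI and PRKCA, against 15.1% of all 18417 genes that passed in either direction and 7.13% that passed as lower. The share that fell rests on so few genes that nothing is read from it. The log2 difference was below 0 for 8 of the 10 genes, against 48.5% of all genes, and the median was -0.22 against 0.0073 over all genes. The arrays of the lines did not overlap for 6 of the 10, which is close to the 55.6% found over all genes, with 5 lower and 1 higher in MV4-11R. An unadjusted p under 0.05 was reached by 5 of them, against 28.6% of all genes.

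**Figure D1:**
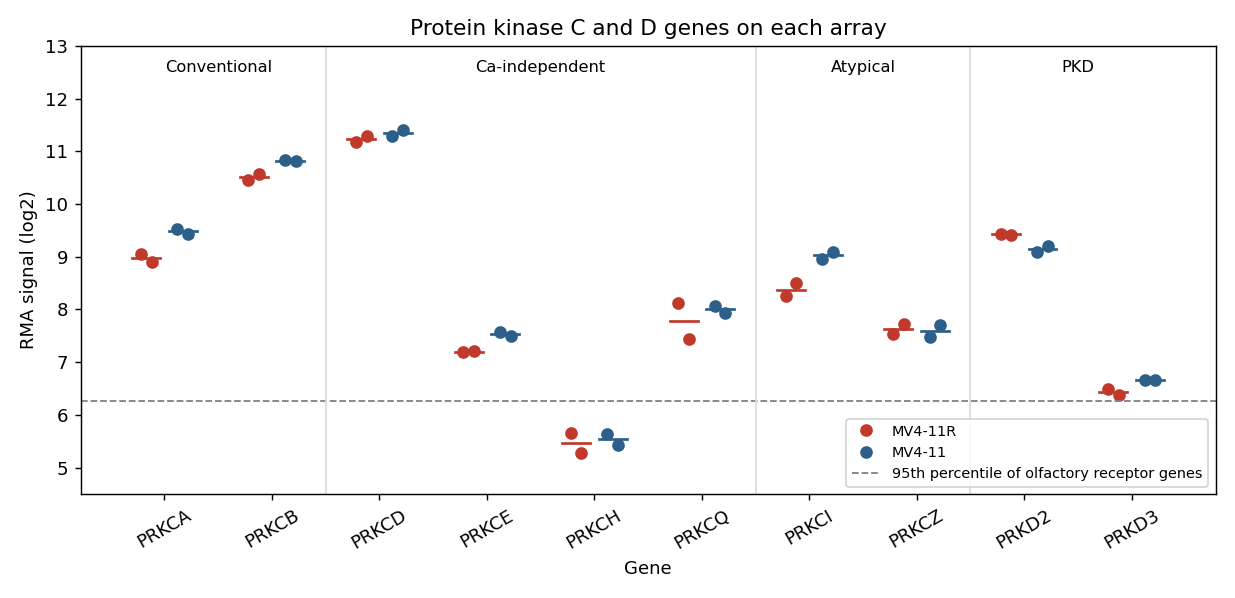
Log2 RMA signal (y axis) of the 10 genes (x axis, by class) on each array, as points with the mean as a bar, MV4-11R in red and MV4-11 in blue. Both MV4-11R arrays lie under both MV4-11 arrays for PRKCA, PRKCB, PRKCE, PRKCI and PRKD3, above them for PRKD2, and only PRKCH lies under the dashed background guide of 6.26.

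PRKCI encodes PKC iota, an atypical isoform that works in cell polarity complexes with PARD6 and is a survival kinase in several cancers. It read 8.25 and 8.49 in MV4-11R, against 8.97 and 9.09 in MV4-11. Both MV4-11R arrays lay below both MV4-11 arrays. The mean was 8.37 ± 0.17 in MV4-11R and 9.03 ± 0.087 in MV4-11 (SD, n = 2 each), a 1.57-fold fall (log2 difference -0.65, SE 0.13, 95% interval -0.97 to -0.34, limma adjusted p = 0.0243). Its 60 neighbours on chromosome 3 among the brighter genes had a median difference of -0.25. With that regional shift removed on each array, PRKCI read -0.38 (SE 0.12) and no longer passed (adjusted p = 0.0846). The adjusted p was also above 0.05 when MV4-11R replicate 1 was left out (0.0837), and likewise for the parental replicate 1 (0.0578) and replicate 2 (0.0940), but it was 0.0240 when MV4-11R replicate 2 was left out.

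PRKCA encodes PKC alpha, the most widely expressed conventional isoform and the classical receptor of phorbol esters in many cells. It read 9.05 and 8.91 in MV4-11R, against 9.53 and 9.44 in MV4-11, again with no overlap. The mean was 8.98 ± 0.10 in MV4-11R and 9.48 ± 0.061 in MV4-11 (SD, n = 2 each), a 1.42-fold fall (log2 difference -0.50, SE 0.11, 95% interval -0.78 to -0.22, limma adjusted p = 0.0362). Its neighbours on chromosome 17 had a median of -0.0009, and it still passed with the regional shift removed, at -0.49 (adjusted p = 0.0410). Leaving out any 1 of the 4 arrays ended the call. The adjusted p was then 0.0642 (MV4-11R replicate 1 left out), 0.115 (MV4-11R replicate 2), 0.153 (MV4-11 replicate 1) or 0.0952 (MV4-11 replicate 2), while the difference stayed between -0.58 and -0.43.

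The promoters shown are those of the 2 genes that fell, chosen by that call alone. Each is the RefSeq window from 250 bases before to 50 bases after the annotated start, in GRCh38.p14, on the + strand and 5′ to 3′, with CG dinucleotides in capitals. PRKCA lies at chr17:66302363-66302662 and PRKCI at chr3:170222174-170222473.
PRKCA: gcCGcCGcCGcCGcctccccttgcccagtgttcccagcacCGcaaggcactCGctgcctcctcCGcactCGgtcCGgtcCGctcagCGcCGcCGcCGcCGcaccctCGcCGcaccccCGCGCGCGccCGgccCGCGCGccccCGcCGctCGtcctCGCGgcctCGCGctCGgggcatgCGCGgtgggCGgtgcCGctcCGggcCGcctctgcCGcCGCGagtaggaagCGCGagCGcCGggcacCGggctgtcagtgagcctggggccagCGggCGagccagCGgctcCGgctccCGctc
PRKCI: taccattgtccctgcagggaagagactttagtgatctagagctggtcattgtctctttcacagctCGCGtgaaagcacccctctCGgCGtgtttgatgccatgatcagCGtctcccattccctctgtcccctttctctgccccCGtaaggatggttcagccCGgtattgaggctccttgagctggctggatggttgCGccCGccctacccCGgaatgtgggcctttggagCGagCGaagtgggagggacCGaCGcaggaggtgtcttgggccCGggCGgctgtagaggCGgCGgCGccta

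The PRKCA window held 52 CG dinucleotides and 81.3% G and C, more CG than 99.2% of 35116 such windows in the table. The PRKCI window held 19, against a median of 14 over all windows. All 10 genes were matched to this table, through 16 windows, and 3 of the genes had more than 1. The GC box GGGCGG, searched on both strands, was found at 1 place in PRKCA and at 2 places in PRKCI, and occurs in 45.0% of all windows. The phorbol ester response element, AP-1 (TGANTCA, both strands), was in 0 of the 16 windows of these genes and in 7.71% of all windows. The cyclic AMP response element TGACGTCA was in 1 window of PRKCZ and in 1.85% of all windows. These matches describe letters in the reference and were not set against the array values.

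The other conventional isoform measured here, PRKCB, is the PKC of B cells, where it links the antigen receptor to NF-kB, and is also prominent in monocytes. It read 10.45 and 10.57 in MV4-11R, against 10.83 and 10.82 in MV4-11. The arrays did not overlap, and the log2 difference of -0.31 (SE 0.11, 95% interval -0.58 to -0.04) did not pass (adjusted p = 0.122). Of 7 B cell markers 1 rose and 1 fell, with a summed linear signal of 690 to 753 in MV4-11R and 780 to 804 in MV4-11, and 3 of the 7 read under the guide in both lines, among them MS4A1, the gene of CD20. PAX5 rose by 0.80 and CD79B fell by 1.09 on the log2 scale, and both read above the guide. Both groups are labelled as cell lines, not as mixed tissue, and an admixture of B cells was not tested.

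Among the calcium-independent isoforms, PRKCD encodes PKC delta, a kinase that promotes apoptosis when cleaved by caspases and takes part in macrophage differentiation. It was well above the guide, at 11.18 and 11.29 in MV4-11R, against 11.29 and 11.40 in MV4-11. Its arrays overlapped between the lines, with a difference of -0.11 (SE 0.11, 95% interval -0.38 to 0.17, adjusted p = 0.639). That interval leaves room for a fall of up to 0.38 and a rise of up to 0.17 on the log2 scale.

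PRKCE encodes PKC epsilon, a kinase of cell survival and of the macrophage response to endotoxin. It read 7.19 and 7.21 in MV4-11R, against 7.57 and 7.49 in MV4-11. The MV4-11R arrays lay together and below both MV4-11 arrays. The difference of -0.33 (SE 0.11, 95% interval -0.59 to -0.07) did not pass (adjusted p = 0.0935), and it read -0.41 with the regional shift removed (adjusted p = 0.0726).

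PRKCQ encodes PKC theta, known best from the immune synapse of T cells. It read 8.11 and 7.43 in MV4-11R, against 8.06 and 7.94 in MV4-11. One MV4-11R array thus lay above both parental arrays and the other below them. The gap of 0.68 between the MV4-11R arrays was exceeded by 1.93% of all genes, whose median gap was 0.14, and the same arrays differed by 0.61 in EZH2. The difference of -0.23 (SE 0.22) did not pass (adjusted p = 0.600), and it was -0.57 without MV4-11R replicate 1 (adjusted p = 0.0712) and 0.11 without MV4-11R replicate 2 (adjusted p = 0.723). The 47 neighbours of PRKCQ on chromosome 10 among the brighter genes had a median difference of -0.16. With that regional shift removed on each array, PRKCQ read -0.05 (SE 0.14, limma adjusted p = 0.869). Of 12 T and NK cell markers, 8 lay under the guide in both lines, among them CD3D, CD3E and CD3G. The granule protein NKG7 was the 1 that rose, and 0 fell. The summed linear signal was 3121 to 3290 in MV4-11R and 1882 to 1952 in MV4-11. That sum was carried largely by NKG7, which averaged 11.33 in MV4-11R and 10.38 in MV4-11, while the other 11 did not pass. Both groups are labelled as cell lines, and an admixture of T or NK cells was not tested.

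PRKCH encodes PKC eta, an isoform of epithelia and lymphocytes. It was the only one of the 10 under the guide in both lines, at 5.66 and 5.28 in MV4-11R, against 5.63 and 5.44 in MV4-11. The arrays overlapped and the difference of -0.07 (SE 0.16, adjusted p = 0.855) lies in the range where RMA compresses differences.

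**Figure D2:**
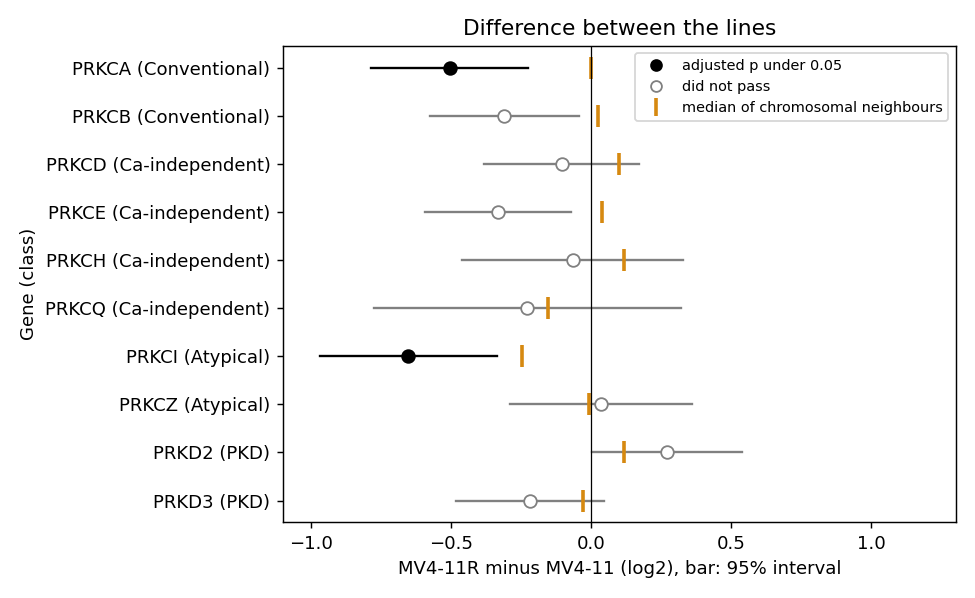
Log2 difference of each gene, MV4-11R minus MV4-11 (x axis), with limma's 95% interval as a bar, filled where the adjusted p was under 0.05, and the median difference of neighbouring genes as an orange tick. PRKCA and PRKCI are filled, and the tick of PRKCI lies at -0.25 while that of PRKCA lies at -0.0009.

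PRKCZ encodes PKC zeta, the other atypical isoform, which acts in cell polarity and in NF-kB signalling. It read 7.54 and 7.72 in MV4-11R, against 7.48 and 7.71 in MV4-11. The arrays of the lines were interleaved, and the difference of 0.04 (SE 0.13, 95% interval -0.29 to 0.36, adjusted p = 0.914) changed sign when MV4-11 replicate 1 (-0.08) or MV4-11R replicate 2 (-0.05) was left out and with a second quantile normalization (-0.0032).

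The PKD genes stood on opposite sides of 0. PRKD2, the main PKD of blood cells, read 9.43 and 9.42 in MV4-11R, against 9.10 and 9.21 in MV4-11. It was the only gene of the 10 whose MV4-11R arrays both lay above MV4-11, and its difference of 0.27 (SE 0.11, 95% interval 0.0039 to 0.54) did not pass (adjusted p = 0.169). The median difference of its neighbours on chromosome 19 was 0.12, and with the regional shift removed it read 0.10 (adjusted p = 0.645). PRKD3, which is found in many tissues and is close to PRKD2 in structure, read 6.49 and 6.38 in MV4-11R, against 6.66 and 6.66 in MV4-11. These values lie just above the guide, and the difference of -0.22 (SE 0.11) did not pass (adjusted p = 0.259). PRKD1, the founding member of the PKD family, read 3.66 and 3.52 in MV4-11R, against 3.53 and 3.61 in MV4-11, under the guide on all 4 arrays.

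**Figure D3:**
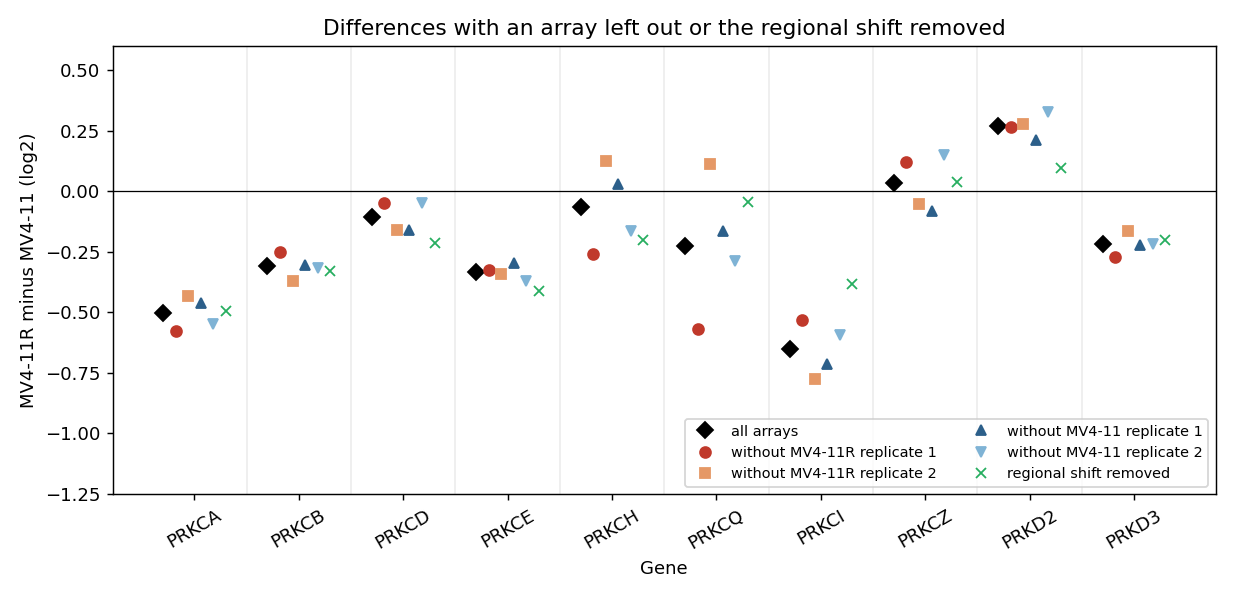
Log2 difference, MV4-11R minus MV4-11 (y axis), of the 10 genes (x axis) with all arrays, with each array left out and with the regional shift removed. PRKCA and PRKCI stay below 0 throughout, PRKCQ runs from -0.57 to 0.11 depending on which MV4-11R array is left out, and PRKCI moves to -0.38 with the shift removed.

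Because closely related isoforms can stand in for each other, the log2 ratio of 5 pairs was also taken within each array. The ratio of PRKCI to its atypical partner PRKCZ was 0.71 and 0.78 in MV4-11R, against 1.49 and 1.38 in MV4-11, a shift of -0.69. The ratio of PRKD2 to PRKD3 was 2.94 and 3.04 in MV4-11R, against 2.44 and 2.55 in MV4-11, a shift of 0.49. These are the widest shifts of the 5, and the arrays of the lines did not overlap for either. Those of PRKCE to PRKCH (-0.27) and PRKCA to PRKCB (-0.20) did not overlap either, while those of PRKCD to PRKCQ (0.12) did. A 2-sided exact permutation test over 4 arrays cannot go below 0.333, the value reached by the 4 pairs without overlap, and no other test of the ratios was run, so whether they differ between the lines was not settled. PRKCH reads under the guide, so the PRKCE to PRKCH ratio has no exact size, and its arrays were only just apart, at 1.93 in MV4-11R replicate 2 and 1.94 in MV4-11 replicate 1. The sizes of the ratios themselves depend on the probes, so the shift between the lines is the quantity to read. The ratios were not recomputed with the regional shift removed, where the differences were -0.38 for PRKCI, 0.04 for PRKCZ, 0.10 for PRKD2 and -0.20 for PRKD3. PRKD3 lies just above the guide, which also limits the PRKD2 to PRKD3 ratio.

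The genes around PKC and PKD were described by 12 lists. Their counts are to be read beside the 7.92% of all genes that rose and the 7.13% that fell. No set test was run, and counts of 1 or 2 genes in lists this short are a description only. Upstream, of 13 phospholipase C genes 0 rose and 1 fell, with a median of -0.07. Of these 13, 6 read under the guide in both lines, where differences are compressed. The gene that fell was PLCB3, which acts downstream of G protein-coupled receptors and averaged 8.09 in MV4-11R and 8.88 in MV4-11 (difference -0.79, adjusted p = 0.0450). PLCB3 did not pass when MV4-11R replicate 1 (adjusted p = 0.134) or MV4-11 replicate 2 (0.143) was left out, and the list had 2 falls without MV4-11 replicate 1. Of 9 diacylglycerol kinases, which remove the activating lipid, 1 rose and 0 fell, with a median of 0.09. That was DGKE at 7.78 in MV4-11R and 6.97 in MV4-11 (difference 0.80, adjusted p = 0.0199). It did not pass when MV4-11R replicate 1 (0.0625) or MV4-11 replicate 1 (0.0737) was left out. With MV4-11R replicate 2 left out, 1 of these kinases fell. Of 7 kinases and phosphatases that prime PKC or take the priming phosphates off, 0 rose and 0 fell, with a median of 0.20. The widest difference there was that of MLST8, a subunit of the mTOR complexes, at 0.54 (adjusted p = 0.152).

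Of 14 scaffolds and partners of PKC, 0 rose and 2 fell, with a median of -0.04, and 5 of the 14 read under the guide in both lines. There was 1 rise when either MV4-11R array was left out, and 1 fall when MV4-11R replicate 1 or MV4-11 replicate 2 was. The LIM domain protein PDLIM5, chosen after its value was seen, had a difference of 0.87 and did not pass (adjusted p = 0.0880). WWC1, the protein KIBRA, which binds PKC zeta, averaged 6.26 in MV4-11R and 7.58 in MV4-11, a 2.50-fold fall (difference -1.32, SE 0.15, adjusted p = 0.00439). Its level in MV4-11R was at the background guide, so the fold may understate the change. The anchoring protein AKAP13 averaged 7.45 in MV4-11R and 8.17 in MV4-11 (difference -0.71, adjusted p = 0.0282) and did not pass when MV4-11R replicate 1 (0.0885) or MV4-11 replicate 2 (0.102) was left out. PARD6A and PARD6B, the polarity partners of the atypical isoforms, chosen after their values were seen, read 0.01 and -0.14 as differences, and neither passed. Of 2 PKC-related kinases 0 rose and 0 fell, with a median of 0.07 and PKN2 at 0.15 (adjusted p = 0.511). Of 9 other diacylglycerol receptors 0 changed, with a median of 0.14 and the widest difference in the vesicle priming gene UNC13B, at 0.53 (adjusted p = 0.140).

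Of 15 substrates of PKC and PKD, 2 rose and 2 fell, with a median of -0.25. The membrane skeleton protein ADD3, an adducin, averaged 7.87 in MV4-11R and 9.40 in MV4-11 (difference -1.54, SE 0.29, adjusted p = 0.0216). HDAC5, a class IIa deacetylase that PKD sends out of the nucleus, averaged 9.25 in MV4-11R and 9.91 in MV4-11 (difference -0.66, adjusted p = 0.0166). The RAS effector RIN1 rose, with 8.53 in MV4-11R and 7.66 in MV4-11 (difference 0.87, adjusted p = 0.0145), and so did cortactin, CTTN, by 0.67 (adjusted p = 0.0179), though it read under the guide in both lines. With MV4-11 replicate 2 left out the count of falls was 0, with MV4-11R replicate 1 left out it was 1 and with MV4-11R replicate 2 left out it was 4, and that of rises was 1 when MV4-11R replicate 1 or MV4-11 replicate 2 was left out. MARCKS, the classical PKC substrate, chosen after its value was seen, read -0.20 (adjusted p = 0.349).

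PKC reaches NF-kB through CARD proteins, BCL10 and the protease MALT1. Of 10 genes of that arm 2 rose and 0 fell, with a median of -0.02. CHUK, the kinase IKK alpha, averaged 8.63 in MV4-11R and 7.79 in MV4-11 (difference 0.84, SE 0.13, adjusted p = 0.0120). MALT1 averaged 8.42 in MV4-11R and 7.90 in MV4-11 (difference 0.52, adjusted p = 0.0295), but its neighbours on chromosome 18 had a median of 0.64, and with that shift removed it read -0.10 (adjusted p = 0.638). Without any 1 of the 4 arrays MALT1 lost its call and the count of rises was 1. Of 4 NADPH oxidase genes, which make the oxidative burst that PKC triggers, 1 rose and 0 fell, with a median of -0.11. That gene was CYBB, the catalytic subunit, with 10.59 in MV4-11R and 8.87 in MV4-11 (difference 1.73, SE 0.24, adjusted p = 0.00926).

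Of 16 genes that phorbol esters switch on in myeloid cells 9 rose and 0 fell, against 7.92% of all genes that rose, with a median difference of 0.80. TNF averaged 11.33 in MV4-11R and 8.90 in MV4-11 and CXCL8 averaged 9.82 in MV4-11R and 8.23 in MV4-11, with log2 differences of 2.43 and 1.59 and limma adjusted p of 0.00123 and 0.00169. Many of these genes also answer to NF-kB, to MAPK signalling and to the handling of cells, and the list was chosen with earlier results on such genes known, so its count says nothing of PKC activity. The count of rises lay between 8 and 11 with an array left out. Of 6 other kinases that PKC412 inhibits, 0 rose and 2 fell, with a median of -0.17, and both kept their calls with any 1 array left out. They were SYK, the kinase downstream of Fc receptors, which averaged 9.07 in MV4-11R and 10.29 in MV4-11 (difference -1.22, SE 0.11, adjusted p = 0.00230), and FLT3 (difference -0.93, SE 0.11, adjusted p = 0.00526). Of the 6 kinases, 3 read under the guide in both lines.

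**Figure D4:**
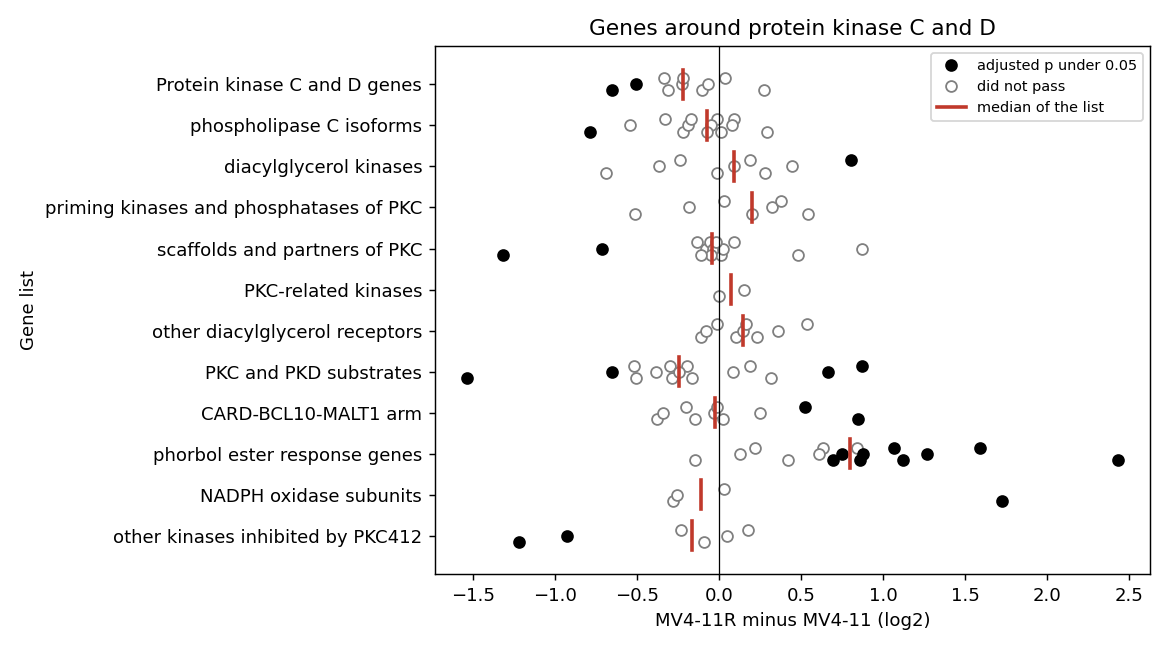
Log2 difference of each gene, MV4-11R minus MV4-11 (x axis), in the PKC and PKD genes and in 11 lists of related genes (y axis), filled where the adjusted p was under 0.05, with the list median as a red bar. The PKC and PKD genes lie between -0.65 and 0.27 with a median of -0.22, and the phorbol ester response genes have 9 filled points, all above 0, and a median of 0.80.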

How the data were processed

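The deposited table holds log2 signals of 33297 probe sets on 4 Human Gene 1.0 ST arrays, which the authors made, per the submitters' processing notes, with Affymetrix Expression Console and its RMA method. The log2 scale was read from the values, with array medians from 6.75 to 6.78. Signals of dim genes are compressed, and the number of arrays limits the precision. The platform annotation named 1 gene for 19460 probe sets, and the brightest was kept for each of 18417 genes, with symbols and chromosomal order from RefSeq GRCh38.p14. The files' own build is not given in the sources used here.

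Genes were tested with limma 3.58.1 in R 4.3.3 (lmFit and eBayes, 2-sided, Benjamini-Hochberg over all genes, threshold 0.05, 2 residual and 6.06 total degrees of freedom). The fit was checked on simulated data with independent noise. That check concerned the code, and cannot show how the calls fare where replicates share technical variation. The members and lists were chosen with earlier results of these data known. Named by rule were the 10 members, PRKD1, EZH2, FLT3, and from each list the 2 largest passing rises and falls, or the widest difference where none passed. PDLIM5, PARD6A, PARD6B, MARCKS and the cell type markers named were chosen outside that rule, after their values were seen.

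The regional shift is, per array, the median deviation of the 30 nearest brighter genes on each side. Nothing in the labels ties equal replicate numbers to a common batch, so no block was used. Alternatives were median centring, quantile normalization, a filter at the 25th percentile, other handling of probe sets, a level-dependent prior, the block, the regional shift and leaving out each array. Some genes are not analysed here.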

Additional observations from a re-analysis of the deposited data

How the results depend on the processing

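Each of the 10 genes had 1 probe set. The level filter, the other handling of probe sets, the block and the level-dependent prior therefore could not alter a difference. Under these settings the direction was fixed in advance, and only the call could move. The 10 differences were recomputed under 12 alternatives, 119 values in all, since PRKCH fell under the filter on level. Of these, 103 kept their direction and side of the threshold, 10 lost the call (PRKCA and PRKCI) and 6 changed sign (PRKCH, PRKCQ and PRKCZ, of which none passed). With an array left out, the difference ran from -0.58 to -0.43 for PRKCA, from -0.77 to -0.53 for PRKCI, from -0.26 to 0.13 for PRKCH, from -0.57 to 0.11 for PRKCQ, from -0.080 to 0.15 for PRKCZ, from -0.052 to 0.09 for PRKD1 and from -0.45 to 0.16 for EZH2, and 0 to 1 of the 10 genes fell. Over all genes, 713 to 1239 then rose and 792 to 1240 fell, against 1458 and 1314 with all arrays, where fewer arrays leave less power. PRKCZ read -0.0032 with a second quantile normalization and PRKD1 -0.016 with median centring. When every probe set was tested on its own, 0 of the 10 genes fell, PRKCA (-0.50, adjusted p = 0.0911) and PRKCI (-0.65, adjusted p = 0.0734) lost their calls, and 755 probe sets rose and 750 fell. That fit adjusts over 33297 tests and also has wider standard errors (0.135 against 0.130 for PRKCI). With the regional shift removed PRKCI read -0.38, PRKD1 -0.14 and MALT1 -0.098, and 1 of the 10 genes fell. Deviations from the line mean correlated across genes between samples of equal replicate number (r = 0.262). With 2 arrays per line the deviations of replicate 2 mirror those of replicate 1, so both numbers give the same value. Swapping the numbers in 1 line would only turn its sign, so it cannot show a shared batch. With the replicate block 1926 genes rose and 1716 fell, PRKCA (adjusted p = 0.0264) and PRKCI (0.0137) kept their calls and no other of the 10 gained one. Among the lists, the block gave MLST8 (0.54, adjusted p = 0.0214) and UNC13B (0.53, 0.0229) a call as higher, and 2 scaffolds rose. Of the substrates 4 fell with a second quantile normalization and 0 with every probe set on its own. The cause of these movements was not tested otherwise. PRKCH and PRKD3 lie near background, which limits what their values show.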
